A study of Homo sapiens with 24 samples.

Results

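SULT1A1, SULT1E1, SULT2B1, UGT1A6, EPHX1, NQO2, ABCC2, ABCC3 and ABCG2 are genes that act on polyphenols or on other foreign or endogenous molecules by sulfation, glucuronidation, hydrolysis, reduction and export. These 9 genes were chosen by name, as the rows of the count table whose Ensembl identifiers carry these symbols, from 60617 genes in all. The choice used no measured value, although earlier results of the same libraries were known when it was made. None of the 9 encodes a methyltransferase.

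The cells were 686Tu (MDA686TU), an established malignant line derived from squamous carcinoma of the head and neck, and all libraries come from this 1 line. The 4 groups of 6 libraries were cells left untreated (NT), cells given 40 µM EGCG, cells given 15 µM resveratrol, and cells given both at the same concentrations (Combination), with a treatment time of 24 h. EGCG (epigallocatechin gallate) is the main catechin of green tea and was dissolved in water, whereas resveratrol, a stilbene of grapes, came from a DMSO stock. Whether cells without resveratrol also received DMSO is not given in the sources used here, so resveratrol and its solvent cannot be told apart. The labels number the replicates 1 to 6 but do not say that they came from separate cultures, so the p-values measure the spread between these libraries, part of which may be technical.

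Phase II metabolism attaches a polar group to a lipophilic molecule. Sulfotransferases move a sulfonate from the activated sulfate donor PAPS onto a hydroxyl group, and UDP-glucuronosyltransferases do the same with glucuronic acid from UDP-glucuronate. The conjugates are too polar to cross membranes freely and leave the cell through ATP-driven pumps of the ABCC and ABCG families. EGCG and resveratrol, both rich in phenolic hydroxyl groups, are well-known substrates of this route, mostly studied in liver and intestine, and the epithelium of the mouth also expresses parts of it.

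Promoter sequences from RefSeq (GRCh38.p14) were available for 7 of the 9 genes, and ABCC3 and SULT1A1 had no entry. The 250 bases before a start site are printed 5′ to 3′ on the strand of the gene for SULT1E1, EPHX1 and NQO2, since these are members that changed with resveratrol in the results that follow. Capitals mark matches on either strand to the core of the antioxidant response element (TGACNNNGC), the site read by NRF2, and to the core of the xenobiotic response element (GCGTG), the site read by the aryl hydrocarbon receptor. The windows are chr4:69860146-69860395 on the minus strand for SULT1E1, chr1:225809874-225810123 and chr1:225825104-225825353 on the plus strand for EPHX1, and chr6:2999644-2999893 on the plus strand for NQO2.
SULT1E1: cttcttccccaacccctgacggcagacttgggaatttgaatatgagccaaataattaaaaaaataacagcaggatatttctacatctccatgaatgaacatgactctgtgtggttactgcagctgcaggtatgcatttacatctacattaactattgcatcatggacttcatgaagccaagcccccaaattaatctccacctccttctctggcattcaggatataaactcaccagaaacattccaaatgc
EPHX1 first start: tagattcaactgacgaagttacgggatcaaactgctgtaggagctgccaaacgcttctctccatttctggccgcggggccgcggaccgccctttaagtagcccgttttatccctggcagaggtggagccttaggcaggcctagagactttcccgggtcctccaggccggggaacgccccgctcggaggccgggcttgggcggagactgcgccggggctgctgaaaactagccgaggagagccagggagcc
EPHX1 internal start: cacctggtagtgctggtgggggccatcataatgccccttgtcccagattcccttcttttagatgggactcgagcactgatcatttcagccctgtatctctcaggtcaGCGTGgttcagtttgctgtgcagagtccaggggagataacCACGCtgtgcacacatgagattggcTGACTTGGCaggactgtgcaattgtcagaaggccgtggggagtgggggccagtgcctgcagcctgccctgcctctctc
NQO2 internal start: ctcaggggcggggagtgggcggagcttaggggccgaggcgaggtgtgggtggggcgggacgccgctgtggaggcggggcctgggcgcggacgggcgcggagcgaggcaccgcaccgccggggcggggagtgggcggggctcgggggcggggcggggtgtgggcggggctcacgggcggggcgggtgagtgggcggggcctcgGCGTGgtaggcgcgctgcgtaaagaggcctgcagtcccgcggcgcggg

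The SULT1E1 window held neither core. EPHX1 had 3 annotated start sites, and its first start, at the 5′ end of the gene, had no match. Nor had the window before the internal start 14087 bases after the first, which is not printed. The window before the internal start 15230 bases after the first held 2 xenobiotic cores and 1 antioxidant core. The latter, TGACTTGGC, lay from 78 to 70 bases before the start. The start site of NQO2 in the RefSeq table lies 11907 bases inside the GENCODE gene, and the window before it held 1 xenobiotic core, 48 to 44 bases before that internal start. Of the 35116 promoter windows of this length in the RefSeq table, 10.9% held an antioxidant core and 32.2% a xenobiotic core. The motifs do not overlap in the printed windows, and a match describes the letters of the window alone.

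Library totals lay between 7034872 and 11735574 counts, and medians per group between 7887159 and 9072849. Of all genes in the table, 15476 were tested after edgeR's low-count filter, with a biological coefficient of variation of 5.32%. All 9 squamous epithelial markers, keratins 5, 14, 6A and 17 among them, had a mean FPKM (a level scaled for library size and gene length) between 28.6 and 1478, and their summed FPKM was 6404 to 6744 in NT, 6109 to 6892 under EGCG, 5323 to 5606 under resveratrol and 5282 to 5771 under both agents. No marker of hepatocytes (8 genes), intestinal epithelium (6 genes) or leukocytes (6 genes) reached a mean of 1 FPKM, and TTR, CYP3A4, CDX2 and FABP2 had no count in any library. Of 7 fibroblast markers only COL1A1 did, with 15.3 FPKM, and the summed list was 13.1 to 15.8 FPKM in NT, 10.7 to 13.2 under EGCG, 15.4 to 18.4 under resveratrol and 18.0 to 20.8 under both agents. Its part in the results was not tested. The mitochondrial share of counts was 0.249% to 0.326% for replicates 1 to 3 and 0.448% to 0.775% for replicates 4 to 6 over the 4 groups. The labels name no batch for this division, and fold changes within each set of replicates are given below.

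In untreated cells the members covered a wide range of levels. EPHX1, the microsomal epoxide hydrolase, was highest at 10.9 ± 0.797 FPKM (SD, n = 6), followed by the efflux pump ABCC3 at 4.89 ± 0.336 FPKM. Neither overlapped with any other member. ABCG2 at 1.25 ± 0.103, NQO2 at 1.24 ± 0.166, SULT2B1 at 0.787 ± 0.273, SULT1A1 at 0.512 ± 0.134, SULT1E1 at 0.480 ± 0.215 and ABCC2 at 0.434 ± 0.0755 FPKM came next, and the libraries of each neighbouring pair in this order overlapped. UGT1A6 was last at 0.0515 ± 0.0408 FPKM, below the lowest ABCC2 library. With resveratrol the first places stayed with EPHX1 at 25.6 and ABCC3 at 8.94 FPKM, and SULT1E1 moved from the seventh place to the third at 2.32 ± 0.285 FPKM, without overlap with NQO2 at 1.66 ± 0.191 FPKM.

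**Figure D1:**
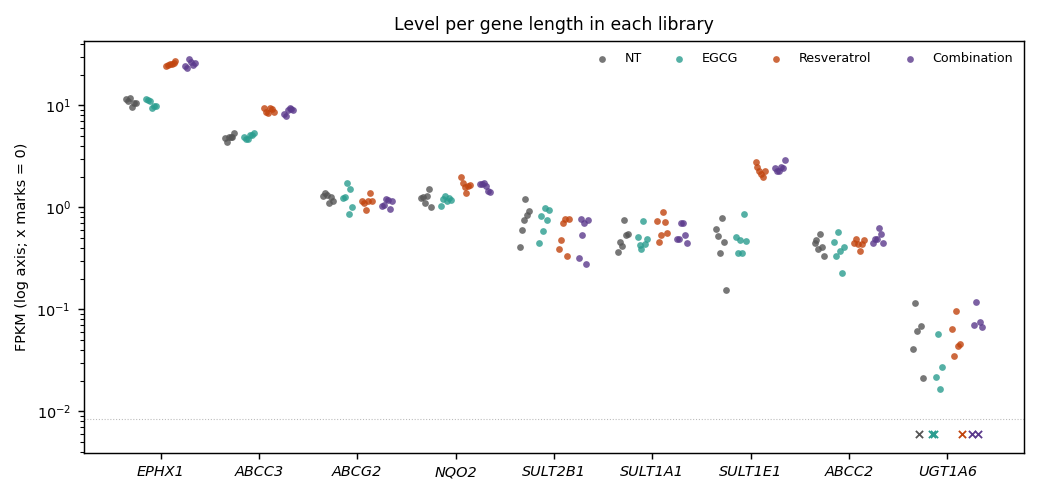
FPKM of the 9 genes on a log axis, 1 point per library, coloured by group and ordered by the mean in untreated cells; crosses at the foot stand for libraries at 0. EPHX1 and ABCC3 lie above the other genes in every group, SULT1E1 lies near 0.480 FPKM in NT and at 2.32 and 2.47 FPKM in the resveratrol and combination groups, and UGT1A6 has libraries at 0 in each group.

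Which members responded to each agent was asked with edgeR's quasi-likelihood test over all 24 libraries, and a gene was called upregulated or downregulated where p was under 0.05 and stayed under 0.1 after Benjamini-Hochberg adjustment. All 9 members are accounted for, of which 8 were tested and UGT1A6 fell below the filter. SULT1E1 passed the filter only through the resveratrol and combination groups, where it is high, so its call follows in part from the filter. Resveratrol upregulated 5 of the 8 (SULT1E1, EPHX1, ABCC3, NQO2 and SULT1A1) and downregulated none, against 56.9% of all tested genes called in either direction, 28.9% higher and 28.0% lower. The combination upregulated 4 (SULT1E1, EPHX1, ABCC3 and NQO2) and downregulated none, where 59.8% of tested genes were called, 30.0% higher and 29.8% lower. EGCG alone changed 0 of the 8 by edgeR, with 0 at an unadjusted p under 0.05 and 0 by DESeq2, where 1.88% of tested genes were called and 10.2% had such a p. The median log2 fold change of the 8 was −0.051 under EGCG, 0.39 under resveratrol and 0.31 under both agents, and the medians over all tested genes were 0.00090, 0.0037 and −0.0015. The treatments share the same NT libraries, so their values are not independent of each other. EPHX1 and ABCC3 also belong to the xenobiotic metabolism genes that the study picked from these libraries, and their direction is therefore not independent evidence.

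**Figure D2:**
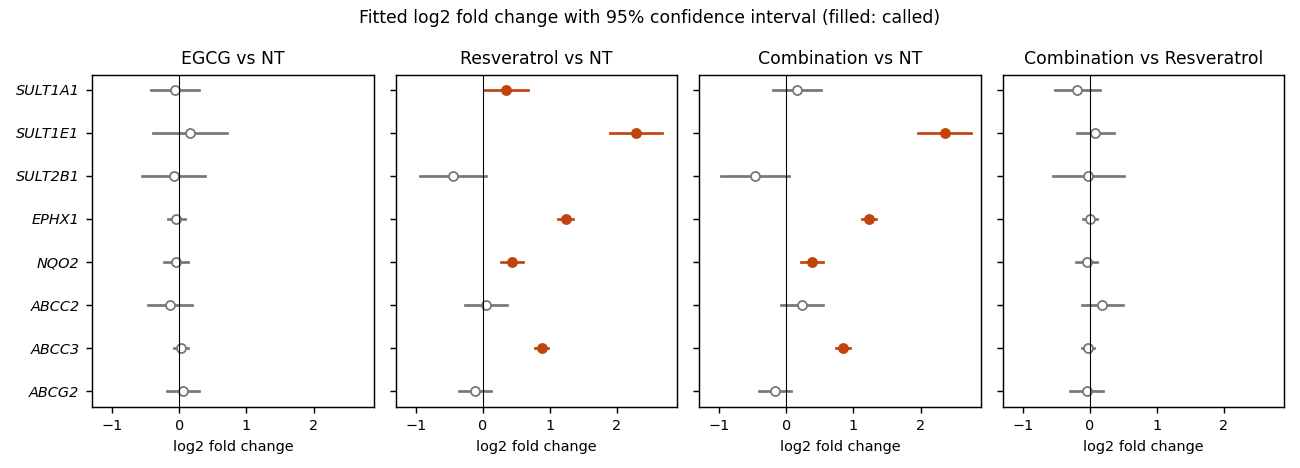
Fitted log2 fold changes (points) with 95% confidence intervals (lines) of the 8 tested members in 4 comparisons; filled points were called. The EGCG panel and the panel of the combination against resveratrol hold open points only, between −0.19 and 0.18, while SULT1E1, EPHX1 and ABCC3 stand at 2.28, 1.23 and 0.87 with resveratrol.

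SULT1E1 (ENSG00000109193, chr4:69841212-69860145 in GRCh38, minus strand), the estrogen sulfotransferase, which conjugates estradiol and phenolic compounds at low concentrations, showed the largest change of the members. Its normalized counts (the authors' counts scaled for library size) in NT replicates 1 to 6 were 11.1, 9.45, 6.46, 14.3, 8.25 and 2.85. With EGCG they were 9.26, 6.46, 8.74, 6.43, 15.7 and 8.56. The lowest library with resveratrol, at 36.1, was above the highest without it, at 15.7. The resveratrol libraries read 50.6, 45.5, 41.0, 38.6, 36.1 and 41.4, and the combination libraries 44.0, 41.1, 41.2, 45.5, 44.2 and 53.0. Resveratrol raised the mean from 8.72 ± 3.92 to 42.2 ± 5.18 (SD, n = 6), a log2 fold change of 2.28 ± 0.195 (SE; edgeR adjusted p = 1.46e-14) or 4.86-fold with a 95% confidence interval of 3.70 to 6.37. The combination, at 44.8 ± 4.37, gave 2.36 ± 0.196 (edgeR adjusted p = 3.99e-15). With EGCG the difference was 0.16 ± 0.274, and the mean of 9.19 ± 3.41 lay within the spread of NT. The rise with resveratrol ranked 5 among the upregulated genes of the whole table by fitted fold, on 53 counts in NT and 271 with resveratrol over 6 libraries. Both the call and this rank follow in part from the filter, which SULT1E1 passed only through the groups with resveratrol. Of the 50-base windows of its transcript, 23.9% also occur in other genes of the table, mostly in a gene that overlaps SULT1E1 on the same strand and had no count.

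SULT1A1 (ENSG00000196502, chr16:28605196-28614279, minus strand), the main phenol sulfotransferase, changed little. Normalized counts ran from 28.6 through a median of 38.5 to 58.1 in NT and from 30.1 through 35.8 to 56.5 with EGCG. With resveratrol they ran from 35.3 through 49.6 to 70.2, and with the combination from 34.7 through 40.1 to 55.2. All 4 groups overlapped, and replicate 4 was the highest library in each. Resveratrol was called with a log2 fold change of 0.34 ± 0.166 (edgeR p = 0.0445, adjusted p = 0.0795), but a two-sided exact permutation of the same libraries gave p = 0.123, and the combination gave 0.16 ± 0.174 (edgeR adjusted p = 0.461). The call was lost in 6 of the 12 fits that left out 1 library. Without NT replicate 1, 2 or 3 the difference was 0.26, 0.32 or 0.31, and without resveratrol replicate 1, 4 or 5 it was 0.30, 0.23 or 0.31. SULT1A1 is one of a set of near-identical genes, with 25.8% of its 50-base windows in other genes of the table. SULT1A2, its paralog on the same chromosome, had means of 6.90 in NT and 13.1 with resveratrol, a log2 fold change of 0.91 ± 0.281 (edgeR adjusted p = 0.00518), and 0.36 with the combination, which was not called. SULT1A3 and SULT1A4, which encode the dopamine sulfotransferase, were below the filter with 42 and 11 counts in NT. Summed over SULT1A1 to SULT1A4, normalized counts were 55.5 ± 14.7 in NT, 60.3 ± 17.3 under EGCG, 73.6 ± 13.2 under resveratrol and 60.8 ± 13.0 under both agents.

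SULT2B1 (ENSG00000088002, chr19:48552172-48599425, plus strand) sulfates cholesterol and other hydroxysteroids in skin and squamous epithelium. It read 10.1 at its lowest, 19.5 at the median and 29.6 at its highest in NT, and 10.9, 19.6 and 24.4 with EGCG. Resveratrol libraries read 8.26, 14.6 and 19.1 at these points, and combination libraries 6.80, 15.2 and 19.0. The groups overlapped, although replicates 1 and 5 with resveratrol and with the combination were below every NT library. Neither the difference with resveratrol, −0.44 ± 0.243 (edgeR adjusted p = 0.123), nor that with the combination, −0.47 ± 0.250 (edgeR adjusted p = 0.108), was called. In replicates 4 to 6 alone these were −0.65 and −0.76 (edgeR adjusted p = 0.0667 and 0.0349), and in replicates 1 to 3 alone −0.12 and −0.082. Single libraries also decided the call. With resveratrol it was called without NT replicate 1 (−0.58) or without resveratrol replicate 4 or 6 (−0.54 in both). With the combination it was called without NT replicate 1 or 2 (−0.61 and −0.53) or without combination replicate 2 or 6 (−0.58 and −0.57). Both differences were also called in a fit with the replicate number as a block, given in the closing section. An antisense transcript covers part of this gene, and 11.2% of its 50-base windows occur there.

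UGT1A6 (ENSG00000167165, chr2:233691607-233773300, plus strand), a glucuronosyltransferase of planar phenols, was close to the limit of detection. It had 14 counts in NT, 5 under EGCG, 14 under resveratrol and 15 under both agents, each over 6 libraries. Between 1 and 2 libraries per group were at 0, and a count of 0 allows up to 3 counts in such a library. The difference between EGCG and NT gave p = 0.149 in a two-sided exact permutation test of log2 CPM. In a fit of every gene with at least 1 count it was −1.34 ± 0.712 (edgeR adjusted p = 0.690). Resveratrol and the combination against NT gave −0.061 and 0.17 in that fit. The combination against EGCG gave 1.51 ± 0.702 (edgeR p = 0.0311, adjusted p = 0.112), with p = 0.186 by permutation. None of these changes of UGT1A6 was called at this depth. Its reads are also of uncertain origin, because the UGT1A genes share their last exons and 74.5% of the 50-base windows of UGT1A6 occur in other UGT1A genes. The 7 UGT1A genes of the table together had 31 counts in NT and 26 in each of the other groups. None of the 18 other UDP-glucuronosyltransferases in the table passed the filter.

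EPHX1 (ENSG00000143819, chr1:225810124-225845563, plus strand) opens epoxides to diols, which are then open to conjugation. Normalized counts in NT ran from 211 through a median of 236 to 260, and with EGCG from 206 through 229 to 255. With resveratrol they ran from 530 through 559 to 593, and with the combination from 513 through 554 to 617. No library with resveratrol overlapped with any library without it. Resveratrol gave a log2 fold change of 1.23 ± 0.0541 (edgeR adjusted p = 8.35e-26), or 2.35-fold with a 95% confidence interval of 2.18 to 2.53, and the combination 1.23 ± 0.0547 (edgeR adjusted p = 8.22e-26). With EGCG the difference was −0.047 ± 0.0615. On the other strand, 28 exon bases of EPHX1 lie within TMEM63A and 653 within a long noncoding RNA gene. The latter had a mean of 0.304 normalized counts over the 24 libraries. No 50-base window of the EPHX1 transcript occurs in another gene.

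NQO2 (ENSG00000124588, chr6:2987987-3019755, plus strand), a quinone reductase that uses dihydronicotinamide riboside and is known to bind resveratrol, rose less. Its normalized counts ran from 103 through 126 to 152 in NT and from 105 through 121 to 131 with EGCG. With resveratrol the lowest, median and highest values were 140, 165 and 199, and with the combination 143, 168 and 175. The highest NT library, replicate 5, lay among the treated ones. The log2 fold change was 0.44 ± 0.0820 with resveratrol (edgeR adjusted p = 1.18e-05) and 0.38 ± 0.0837 with the combination (edgeR adjusted p = 1.01e-04), and −0.055 ± 0.0876 with EGCG.

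Of the efflux pumps, ABCC3 (MRP3, ENSG00000108846, chr17:50634777-50692253, plus strand), which exports glucuronides across the basolateral membrane, was upregulated. In NT its normalized counts ran from 368 through 412 to 455, and with EGCG from 391 through 419 to 451. They ran from 700 through 748 to 796 with resveratrol and from 658 through 751 to 790 with the combination. The libraries with and without resveratrol did not overlap. The log2 fold change was 0.87 ± 0.0488 with resveratrol (edgeR adjusted p = 1.51e-21), or 1.83-fold with a 95% confidence interval of 1.71 to 1.96. It was 0.84 ± 0.0493 with the combination (edgeR adjusted p = 5.60e-21) and 0.026 ± 0.0524 with EGCG. Of the 8 members, SULT1E1, EPHX1 and ABCC3 were the 3 whose 6 libraries all lay above NT, with resveratrol and with the combination, where 15.3% and 15.6% of tested genes did so. SULT1E1 passed the filter only through these groups, so its place among them follows in part from the filter.

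ABCC2 (MRP2, ENSG00000023839, chr10:99782640-99852594, plus strand), the apical exporter of conjugates, and ABCG2 (BCRP, ENSG00000118777, chr4:88090150-88231628, minus strand), which exports sulfates, were not called against NT in any group. Normalized counts of ABCC2 ran from 22.8 through a median of 29.1 to 37.7 in NT and from 15.7 through 26.9 to 38.8 with EGCG. They ran from 25.7 through 30.2 to 33.8 with resveratrol and from 30.4 through 33.5 to 43.3 with the combination. Its log2 fold changes against NT were −0.14 ± 0.164 under EGCG, 0.049 ± 0.158 under resveratrol and 0.23 ± 0.157 under both agents, none of them called, although the last was called without NT replicate 4 (0.33). ABCG2 ran from 54.1 through 62.3 to 67.2 in NT and from 42.4 through 61.0 to 84.5 with EGCG. It ran from 46.3 through 56.3 to 68.1 with resveratrol and from 47.6 through 53.9 to 59.6 with the combination. It differed from NT by −0.12 ± 0.118 with resveratrol and by −0.17 ± 0.121 with the combination (edgeR adjusted p = 0.402 and 0.230), and for the latter a two-sided exact permutation test gave p = 0.0325. The overlap of all ABCG2 groups is visible in the plot of normalized counts by library.

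**Figure D3:**
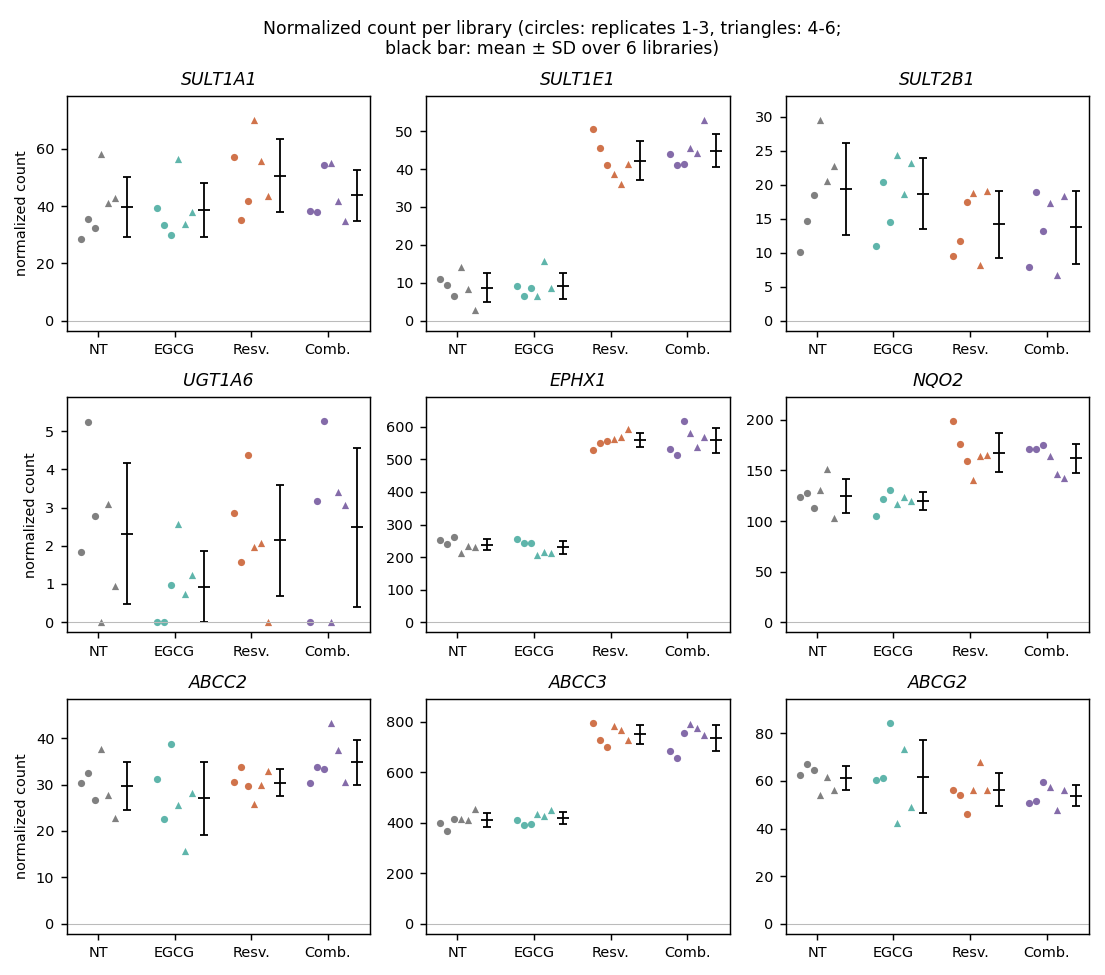
Normalized counts of the 9 genes in each library, with 1 panel per gene and its own axis from 0, circles for replicates 1 to 3, triangles for replicates 4 to 6 and the mean ± SD of 6 libraries beside them (the lower bar of UGT1A6 with EGCG stops at 0). For SULT1E1, EPHX1 and ABCC3 the resveratrol and combination libraries sit above all NT and EGCG libraries, whereas the groups of SULT1A1, SULT2B1, UGT1A6, ABCC2 and ABCG2 overlap.

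What each agent added to the other was read from the combination against the single agents. Against EGCG, the combination upregulated 5 of the 8 members and downregulated none, where 57.8% of tested genes were called, 28.6% higher and 29.1% lower. SULT1E1 differed by 2.20 ± 0.192, EPHX1 by 1.28 ± 0.0552, ABCC3 by 0.82 ± 0.0494 and NQO2 by 0.44 ± 0.0846 on the log2 scale, and in all 4 the 6 combination libraries lay above the 6 EGCG libraries, as did those of 13.5% of tested genes. For SULT1E1 this follows in part from the filter, which it passed only through the groups with resveratrol. The fifth was ABCC2, at 0.38 ± 0.161 (edgeR adjusted p = 0.0430) with overlapping libraries. That call was lost without EGCG replicate 5 (0.23) and without combination replicate 4 (0.31), and the difference was 0.086 in replicates 1 to 3 alone and 0.75 in replicates 4 to 6 alone. SULT1A1 (0.22 ± 0.176) and ABCG2 (−0.23 ± 0.120) were not called against EGCG (edgeR adjusted p = 0.299 and 0.111). SULT1A1 was called without EGCG replicate 4 (0.35), and ABCG2 without EGCG replicate 4 or 6 (−0.28 in both) or combination replicate 3 (−0.26).

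Against resveratrol, the combination changed 0 of the 8 members by edgeR, with 0 at an unadjusted p under 0.05 and 0 by DESeq2, where 7.83% of tested genes were called and 18.2% had such a p. The intervals of the difference were narrow for the well-counted members. For EPHX1 the log2 difference was −0.00014 with a 95% confidence interval of −0.098 to 0.098, and for ABCC3 −0.029 with an interval of −0.12 to 0.063. NQO2 gave −0.051 with an interval of −0.21 to 0.11, and SULT1E1 0.078 with an interval of −0.20 to 0.35. The interval was widest for SULT2B1, from −0.56 to 0.51. The interaction of EGCG and resveratrol, which asks whether the combination departs from the sum of the single log2 changes, was called for 0 of the 8 by edgeR, with 0 at an unadjusted p under 0.05 and 0 by DESeq2, and for 0.304% of tested genes, with 7.74% at such a p. Its values lay between −0.12 for SULT1A1 and 0.33 for ABCC2. The interaction for ABCC2 was −0.019 in replicates 1 to 3 alone and 0.74 in replicates 4 to 6 alone (edgeR adjusted p = 0.690 for the latter).

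Within each set of replicates the same 4 members were upregulated by both treatments with resveratrol. The filter was taken from all 24 libraries, and SULT1E1 passed it only through the groups with resveratrol, so its calls here follow in part from the filter. SULT1E1 rose by a log2 fold change of 2.36 in replicates 1 to 3 and 2.20 in replicates 4 to 6 with resveratrol, and by 2.23 and 2.50 with the combination. EPHX1 rose by 1.14 and 1.35 with resveratrol and by 1.16 and 1.32 with the combination. ABCC3 rose by 0.94 and 0.83 with resveratrol and by 0.85 in both sets with the combination. NQO2 rose by 0.58 and 0.29 with resveratrol and by 0.53 and 0.24 with the combination. The highest edgeR adjusted p among these 16 values was 0.0790, for NQO2 with the combination in replicates 4 to 6. SULT1A1 was not called in replicates 4 to 6, with 0.26 for resveratrol (edgeR adjusted p = 0.282) and −0.11 for the combination (edgeR adjusted p = 0.695), against 0.49 and 0.48 in replicates 1 to 3 (edgeR adjusted p = 0.0559 and 0.0639).

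**Figure D4:**
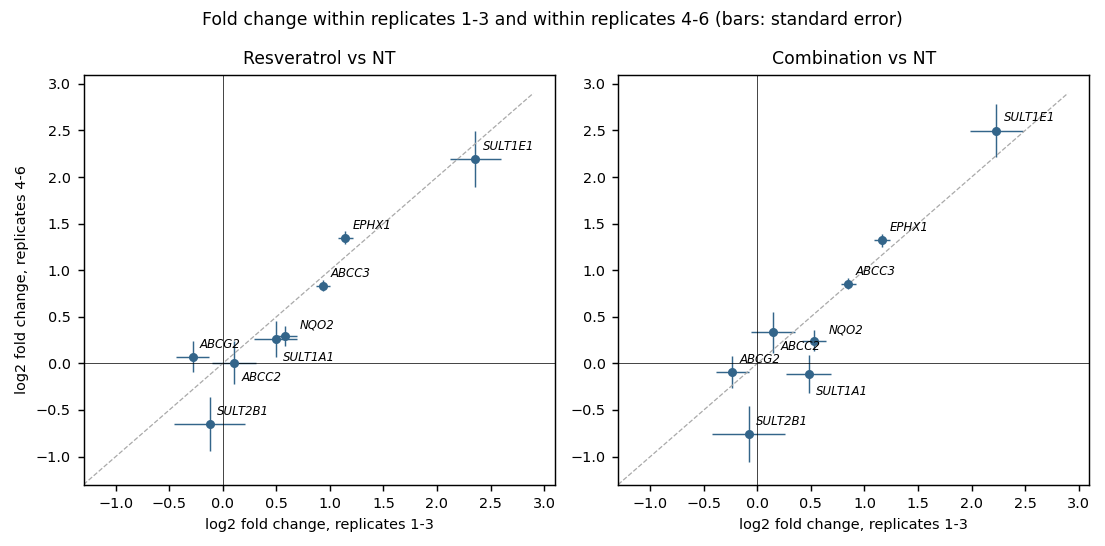
Log2 fold changes against NT of the 8 tested members fitted in replicates 1 to 3 alone (horizontal axis) and in replicates 4 to 6 alone (vertical axis), with standard errors and the line of equal values, for resveratrol and for the combination. SULT1E1, EPHX1 and ABCC3 lie near the line at upper right, while SULT2B1 lies below it, with −0.12 and −0.65 for resveratrol.

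The other genes of the same routes were taken from 11 lists of 105 genes, of which 101 were in the table and 49 were tested. EGCG changed 0 of the 49 by edgeR, with 4 at an unadjusted p under 0.05, where 1.88% of all tested genes were called and 10.2% had such a p. Resveratrol upregulated 28 and downregulated 5, and 67.3% of the 49 were thus called, against 56.9% of all tested genes (28.9% higher and 28.0% lower). The combination upregulated 25 and downregulated 7, or 65.3% of the 49, against 59.8% of all tested genes (30.0% higher and 29.8% lower). The share called in either direction was thus near that of all tested genes. The medians of the 49 were 0.15 with resveratrol and 0.19 with the combination, next to 0.0037 and −0.0015 over all tested genes. Between the combination and resveratrol 5 of the 49 were called (10.2%, against 7.83% of all tested genes), with BPNT1, GUSB and SLCO3A1 higher by 0.20, 0.18 and 0.17 in the combination and SLC26A2 and RXRA lower (−0.23 and −0.14).

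Sulfation depends on the supply of PAPS. Of 8 tested genes of sulfate activation and supply, resveratrol upregulated 5 and downregulated 0, and the combination upregulated 4 and downregulated 2. Of all tested genes, 56.9% and 59.8% were called in either direction, and 28.9% and 30.0% were called higher. The list's count in either direction was close to the share over all genes with resveratrol and somewhat above it with the combination. PAPSS2, which makes PAPS, went from 70.3 ± 9.90 normalized counts in NT to 102 ± 7.73 with resveratrol and 113 ± 10.4 with the combination, a log2 fold change of 0.68 for the latter. BPNT1, which clears the spent cofactor, rose by 0.55 with the combination and was also higher than with resveratrol alone, by 0.20 ± 0.0600 (edgeR adjusted p = 0.0361). The sulfate carrier SLC26A2 rose by 0.36 with the combination and by 0.59 with resveratrol, and was lower with the combination than with resveratrol alone (−0.23 ± 0.0741, edgeR adjusted p = 0.0527). On the side of glucuronidation, UGDH, the source of UDP-glucuronate, rose from 336 ± 20.3 in NT to 463 ± 18.8 with resveratrol and 502 ± 29.4 with the combination, with log2 fold changes of 0.46 and 0.58. SLC35D1, which carries UDP-glucuronate into the endoplasmic reticulum, rose by 0.21 with the combination, and UGP2, which makes UDP-glucose, fell by 0.19.

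A list of conjugate hydrolases and related genes had 9 tested members, of which SUMF1 and SUMF2 belong to the sulfatase-modifying family and GUSBP1 is a pseudogene. Resveratrol upregulated 5 and downregulated 1, as did the combination, a share near the 56.9% and 59.8% of all tested genes called. The lysosomal arylsulfatase ARSA rose by a log2 fold change of 0.84 with the combination, the beta-glucuronidase GUSB by 0.42 and SUMF2 by 0.26. The soluble epoxide hydrolase EPHX2, the other tested gene of its family, rose by 0.90 ± 0.156 with resveratrol and 0.80 ± 0.162 with the combination (edgeR adjusted p = 2.77e-06 and 3.34e-05). Among the quinone and carbonyl reductases, 5 of 6 were upregulated by resveratrol and 4 of 6 by the combination, where 28.9% and 30.0% of all tested genes were called higher. NQO1, the paralog of NQO2, was far more abundant, with 82.1 ± 3.79 FPKM in NT against 1.24 FPKM for NQO2. It rose to 112 ± 4.09 FPKM with resveratrol and 111 ± 5.31 FPKM with the combination, by 0.45 and 0.44 on the log2 scale, next to 0.44 and 0.38 for NQO2. DCXR and CBR1, which reduce dicarbonyls and carbonyls, rose by 0.46 and 0.20 with the combination.

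Among 4 other tested ABC pumps, 2 were upregulated and 1 downregulated by either treatment with resveratrol, against 56.9% and 59.8% of all tested genes called in either direction. ABCC5 and ABCC10 rose by 0.52 and 0.46 with the combination. ABCC4 (MRP4), a basolateral pump of cyclic nucleotides and conjugates, fell from 312 ± 13.4 normalized counts in NT to 196 ± 14.1 with resveratrol and 188 ± 23.0 with the combination (−0.67 and −0.73, edgeR adjusted p = 7.30e-12 and 5.72e-13), the opposite direction to ABCC3. ABCB1, the multidrug pump P-glycoprotein, was below the filter, with 0 counts in all 12 libraries without resveratrol and 2 counts each in the resveratrol and combination groups. Of 6 tested organic anion and MATE transporters, 2 were upregulated and 1 downregulated by each of the treatments with resveratrol, a share below those same percentages. With the combination SLCO3A1 rose by 0.31, SLCO2A1, the prostaglandin carrier, rose by 1.00 on 36 counts in NT, and SLCO4A1 fell by 0.43. TPMT, a thiol methyltransferase, rose by 0.19 with the combination. A list of xenobiotic receptors, their partners and related factors had 5 tested genes. Resveratrol upregulated 3 and downregulated 1, and the combination 2 and 1, where 56.9% and 59.8% of all tested genes were called. With the combination AHR, the aryl hydrocarbon receptor, rose from 404 ± 33.3 to 640 ± 53.1 normalized counts (0.66). The retinoid X receptor gene RXRA fell by 0.28 and RXRB rose by 0.19.

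**Figure D5:**
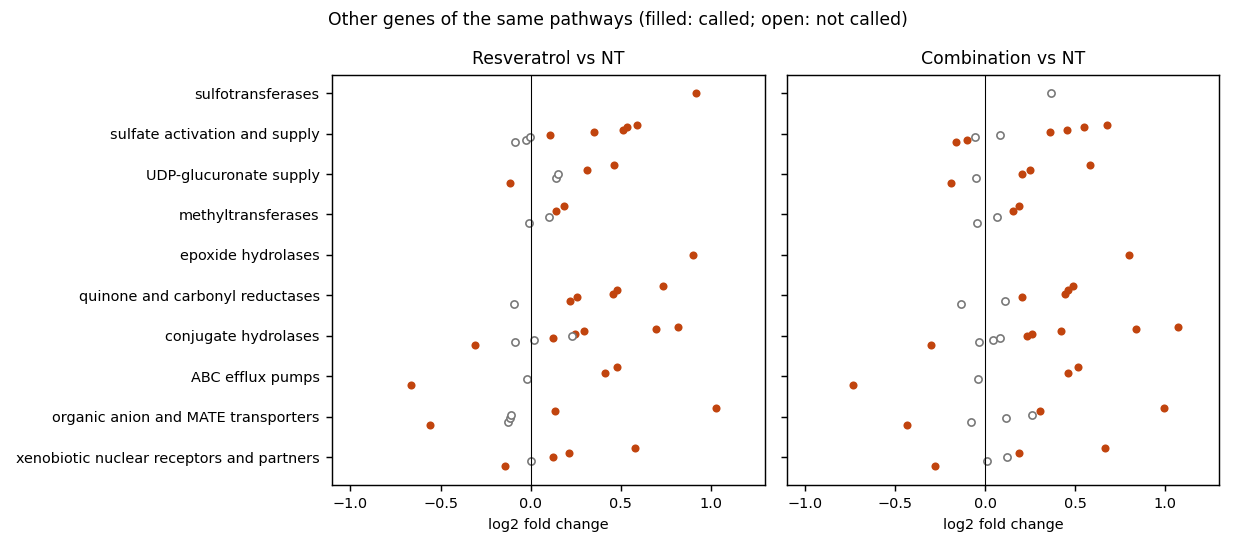
Log2 fold changes of the 49 other tested pathway genes, 1 point per gene and 1 line per list, for resveratrol and the combination against NT; filled points were called. Most called points lie to the right of 0, with 28 higher and 5 lower with resveratrol, and the lowest point of the pump list, ABCC4, lies at −0.67 and −0.73.

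The genes whose pattern was most like that of the 3 members with the largest change were found by the root mean square distance of the log2 fold changes over the 3 treatments against NT, among all tested genes that are not members. For SULT1E1 these were AKR1C2 (distance 0.0786) and AKR1C1 (0.143), aldo-keto reductases that act on steroids and carbonyls, with log2 fold changes of 2.34 and 2.19 with the combination, beside 2.36 for SULT1E1. AKR1C1 and AKR1C2 are near-identical copies, so reads may be split between them in an uncertain way. The nearest to EPHX1 were IFIT2 (0.0244), an interferon-induced gene, and MEGF6 (0.0434), with 1.22 and 1.18 beside 1.23 for EPHX1. For ABCC3 they were SLC2A12 (0.0187), a glucose transporter, and FZD5 (0.0194), a Wnt receptor, with 0.84 and 0.85 beside 0.84 for ABCC3. The distance is a description of these 24 libraries.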

How the data were processed

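Per the labels and the methods, total RNA of 686Tu cells was extracted with RNeasy, 24 stranded mRNA libraries (4 groups of 6) were made with TruSeq, and paired reads were trimmed with Trimmomatic 0.36 and aligned to GRCh38 with HISAT2 2.0.4 and SAMtools 1.3.1; bcl2fastq 2.17.1.14, FastQC 0.11.5 and DESeq2 1.20.0 also stand in the submitters' processing notes. The counting program, its annotation and its strand setting are not given in the sources used here. The authors deposited raw counts per gene, a normalized signal per gene and FPKM. The deposited normalized signal was checked to equal the raw counts over DESeq2's median-of-ratios size factors, and the authors' FPKM to equal that signal per length.

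Raw counts of the 24 libraries were fitted in 1 model with edgeR 4.0.16 in R 4.3.3 (TMM, filterByExpr, robust quasi-likelihood test, no block), p-values being adjusted over all 15476 tested genes. Normalized counts and FPKM served for description only. The fits were tested on simulated data. Alternatives were DESeq2 1.42.0, other scalings and filters, an adjusted p under 0.05, only the groups compared, the replicate block, replicates 1 to 3 or 4 to 6 alone, 1 library left out, and two-sided exact permutation over 924 splits, whose smallest possible p is 0.00216. The share of 50-base windows used the reference transcripts of GENCODE on GRCh38, as did gene positions.

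The members and gene lists were chosen with earlier results of these data known. Counts over the gene lists cover every tested gene, although a listed gene is not reported here by name. Named are all members, up to 3 genes of each list with the smallest p in the combination against NT among those called, genes whose reads resemble a member's, and 2 genes of like pattern for each of 3 members. ABCB1, CYP3A4 and the other marker genes named at 0 fall outside this rule and were chosen after their values were seen. No column of the files was left out, and no pair of libraries was identical. At these depths a gene with few counts, such as UGT1A6, carries a large counting error, and limits from counts of 0 cover counting error only.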

Additional observations from a re-analysis of the deposited data

How the results depend on the processing

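The counts of members called kept within 1.5 times of the reported count under every alternative run. Leaving out 1 library gave 4 to 6 members for resveratrol, 4 to 5 for the combination, 4 to 7 for the combination against EGCG, and 0 for EGCG, for the combination against resveratrol and for the interaction. SULT1E1, EPHX1, ABCC3 and NQO2 kept their calls with resveratrol and with the combination wherever they were fitted; SULT1E1 was not tested with a filter of 10 counts in every library. The labels do not say that a replicate number marks a shared culture or day, and same-numbered libraries correlated at −0.011 to 0.13 in 36 pairs, with 2 over 0.1, so the numbers were not taken as pairs. As a hint from the data that the numbers may carry something shared, 14 of 24 libraries correlated best with one of their own number in another group. Each other group of 6 holds only 1 such library. With the replicate block, 0, 6, 5, 6, 0 and 0 members were called for EGCG, resveratrol and the combination against NT, the combination against EGCG and against resveratrol, and the interaction. The added call was SULT2B1, at −0.44, −0.48 and −0.45 (edgeR adjusted p = 0.0587, 0.0427 and 0.0663). With library size as the only scaling, ABCC2 with the combination became a call (0.32, edgeR adjusted p = 0.0816).

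Directions turned for values that were not called. In replicates 1 to 3 alone, EGCG gave 0.11 for SULT1A1, −0.12 for SULT1E1, 0.052 for SULT2B1 and 0.061 for ABCC2. In the same replicates the combination against resveratrol gave −0.13 for SULT1E1, 0.040 for SULT2B1, 0.019 for EPHX1 and 0.048 for ABCG2, and the interaction −0.013 for SULT2B1, −0.023 for NQO2 and −0.019 for ABCC2. In replicates 4 to 6 alone, ABCG2 with resveratrol was at 0.073, SULT1A1 with the combination at −0.11 and ABCC3 in the combination against resveratrol at 0.020. EPHX1 in the combination against resveratrol was at 0.0011 by DESeq2 and 0.00098 with DESeq2 size factors. The interaction was −0.0097 for NQO2 by library size and −0.0061 for SULT2B1 with the replicate block, and the permutation difference of ABCG2 with EGCG was −0.013. With 1 library left out, EGCG values ranged from −0.18 to 0.072 for SULT1A1, −0.11 to 0.35 for SULT1E1, −0.22 to 0.070 for SULT2B1, −0.11 to 0.0054 for NQO2, −0.28 to 0.0064 for ABCC2, −0.0027 to 0.058 for ABCC3 and −0.047 to 0.13 for ABCG2. The combination against resveratrol ranged from −0.13 to 0.10 for SULT2B1, −0.034 to 0.024 for EPHX1, −0.095 to 0.0024 for NQO2, −0.051 to 0.0011 for ABCC3 and −0.10 to 0.0079 for ABCG2, and the interaction from −0.27 to 0.19 for SULT1E1, −0.095 to 0.20 for SULT2B1 and −0.058 to 0.058 for NQO2. The cause of these turns was not tested. Depth limits SULT1E1 without resveratrol, SULT2B1 and UGT1A6, with 0 to 29 counts per library.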
